A study of Nothobranchius furzeri with 20 samples.

Results

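Among the genes counted in the liver of male turquoise killifish (Nothobranchius furzeri), 13 had a median level that was higher at 7 than at 5 weeks of age, higher again at 10 weeks, and higher again at 14 weeks. They were chosen by their measured levels in the same 20 fish that are described here. CPM are the reads of a gene scaled to a common column total for all libraries. The level was log2(CPM + 0.5), and M is the median level of the 5 fish of an age. A gene was open to the choice if its highest age median reached 2 CPM and if it was not among the 100 genes of highest mean CPM, which left 12730 of 26739 genes. Members had to gain at least 0.4 in M at each of the 3 steps between neighbouring ages. All 13 genes that did so are described, since the cap of 150 was not reached. The fish were males of the GRZ strain, an inbred laboratory strain with a very short life, at 5, 7, 10 and 14 weeks (n = 5 fish per age, 1 library each, from total RNA). No treatment, genotype, tank or batch is given in the sources used here, and the study asked how liver expression differed between age groups.

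The turquoise killifish lives in seasonal ponds, matures within weeks and ages fast, which is why it is used to follow ageing in a vertebrate. The liver makes most plasma proteins, stores and releases glucose and lipid, and detoxifies. In young adult fish it also shifts its output with growth, feeding and reproduction, so that age and life stage change together. The files name genes only by identifiers. None of the identifiers (0 of 26739) matched the 38438 genes of the NCBI RefSeq table for assembly NfurGRZ-RIMD1, so no member has a name, a role, a position or a sequence here. The label "liver" could not be checked against liver marker genes for the same reason. In whole tissue, more cells of a type and more RNA per cell cannot be told apart.

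A steady climb was rare in these livers. Of the 12730 open genes, 3695 (29.0%) gained at least 0.4 in M from 5 to 7 weeks, 3512 (27.6%) from 7 to 10 weeks and 1424 (11.2%) from 10 to 14 weeks. Both of the first steps were upward in 189 genes. Of these, 13 gained again by 14 weeks, 91 lost at least 0.4 and 85 moved by less than 0.4. The mirror pattern, a loss of at least 0.4 at every step, was found in 3 genes. Patterns in which the steps from 5 to 7 and from 7 to 10 weeks went opposite ways were far more frequent. The alternating ones held 252 genes up, down and up, and 392 genes down, up and down. Those that did not alternate were as common, with 360 genes up, down and down, and 253 genes down, up and up. Down, down and up was found in 73 genes. Each of these steps was of at least 0.4. Successive steps share the fish of the age between them, and the part of this in the patterns was not tested. Without a minimum step, M was ordered upward over the 4 ages in 373 genes and downward in 434 genes. The smallest of the 3 steps reached 0.2 in 69 genes and lay between 0.3 and 0.4 in 17. The members nearest to the limit were Nfu_g_1_021289, with a smallest step of 0.42 (0.416) at 14 against 10 weeks, and Nfu_g_1_013920, with 0.42 (0.420) at 7 against 5 weeks. Just outside lay Nfu_g_1_021228 and Nfu_g_1_008253, with smallest steps of 0.394 and 0.389, both at 14 against 10 weeks.

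**Figure D1:**
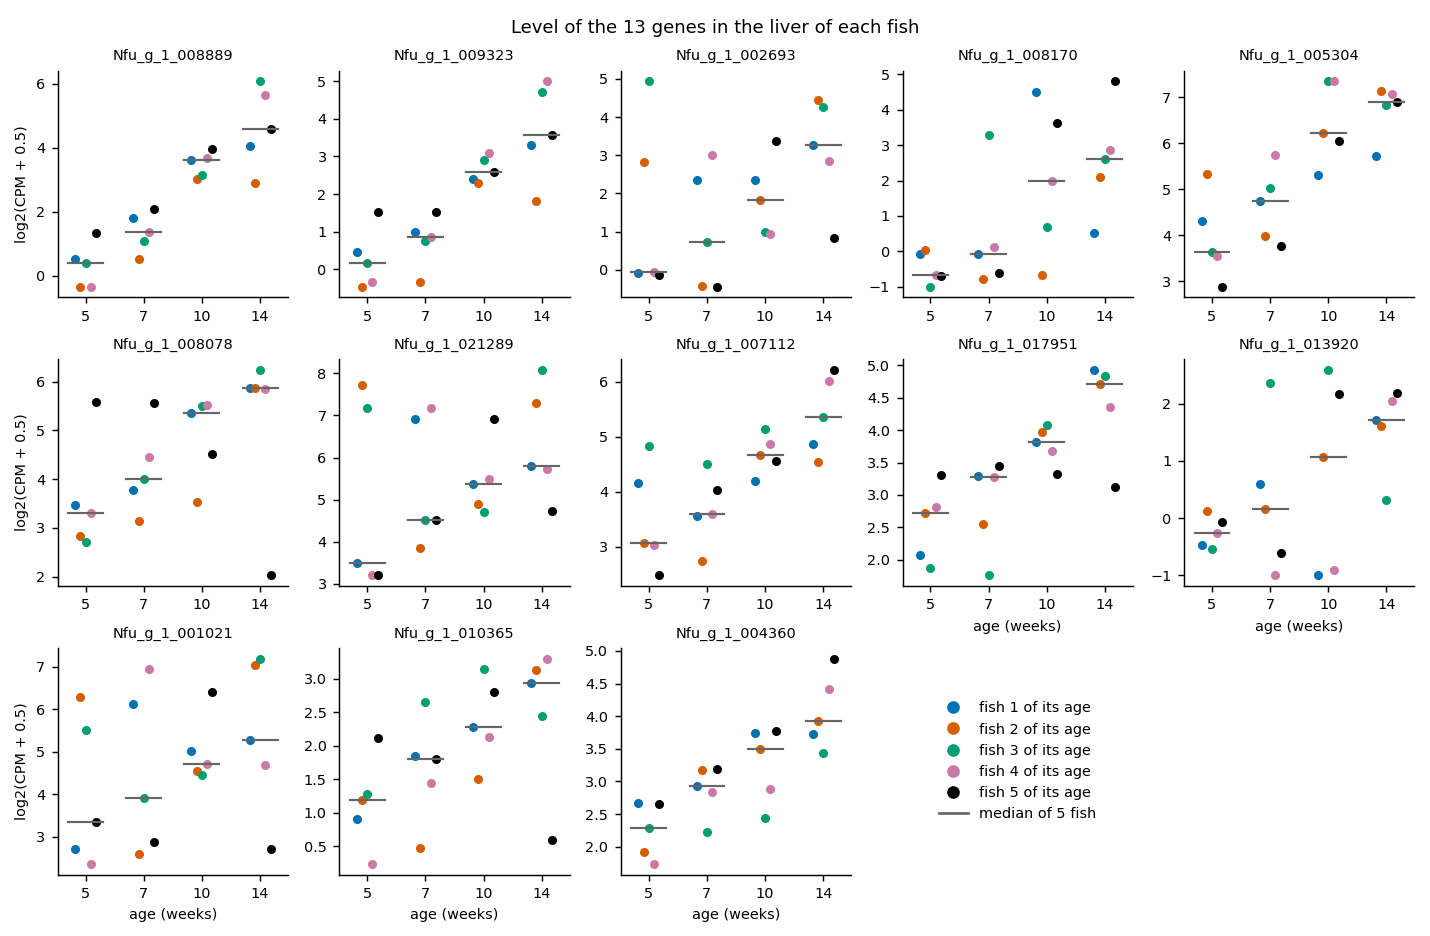
Level of each of the 13 genes, as log2(CPM + 0.5), against age in weeks, with 1 point per fish (5 per age) and the median as a line. The medians climb at every step by construction. In every panel single fish of 5 and 7 weeks overlap, as do those of 10 and 14 weeks.

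Nfu_g_1_008889 and Nfu_g_1_009323 climbed furthest. In fish 1 to 5 of each age, Nfu_g_1_008889 had 0.932, 0.293, 0.811, 0.294 and 2.06 CPM at 5 weeks, and 3.01, 0.943, 1.63, 2.11 and 3.73 CPM at 7 weeks. It had 11.8, 7.64, 8.39, 12.5 and 15.1 CPM at 10 weeks, and 16.3, 7.05, 67.8, 50.1 and 23.7 CPM at 14 weeks. Every 10-week fish lay above every 7-week fish and every 14-week fish above every 5-week fish, while 14-week fish 2 lay below all 10-week fish. The gain in M over the whole span was 4.21, an 18.5-fold difference with 0.5 CPM added, and 53.1% of it fell between 7 and 10 weeks. Its mean was 33.0 ± 25.2 CPM at 14 weeks and 0.878 ± 0.722 CPM at 5 weeks (SD, n = 5).

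For Nfu_g_1_009323 the 5-week fish had 0.888, 0.228, 0.624, 0.294 and 2.36 CPM, and the 7-week fish 1.51, 0.296, 1.18, 1.32 and 2.4 CPM. The 10-week fish had 4.81, 4.40, 6.97, 7.98 and 5.55 CPM and the 14-week fish 9.40, 3.0, 25.5, 31.6 and 11.3 CPM. The ages separated as for Nfu_g_1_008889, with no overlap of 10 over 7 weeks or of 14 over 5 weeks, and 14-week fish 2 was again the lowest of its age. The gain in M was 3.39. These were the only members without overlap at any single step, and each had it at 1 step, from 7 to 10 weeks.

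The other members gained between 1.63 and 3.32 in M from 5 to 14 weeks, with folds of 3.10 to 9.99 on the scale with 0.5 CPM added. The median over the 13 members was 2.30, and over all open genes it was -0.05. The step from 7 to 10 weeks was the largest in 8 members, that from 10 to 14 weeks in 3 and that from 5 to 7 weeks in 2. The median steps were 0.63, 1.07 and 0.67 from the first to the last. The ages are 2, 3 and 4 weeks apart, and per week the medians were 0.315, 0.358 and 0.166. Per week, the first step was the fastest in 7 members, the second in 6 and the last in none (0). The rule asked for the same gain of 0.4 at each step, so the lowest rate it allowed was highest at the first step and lowest at the last. The lowest rates among members were 0.210, 0.159 and 0.104 per week. The part of the rule in the order of the rates was not tested.

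**Figure D2:**
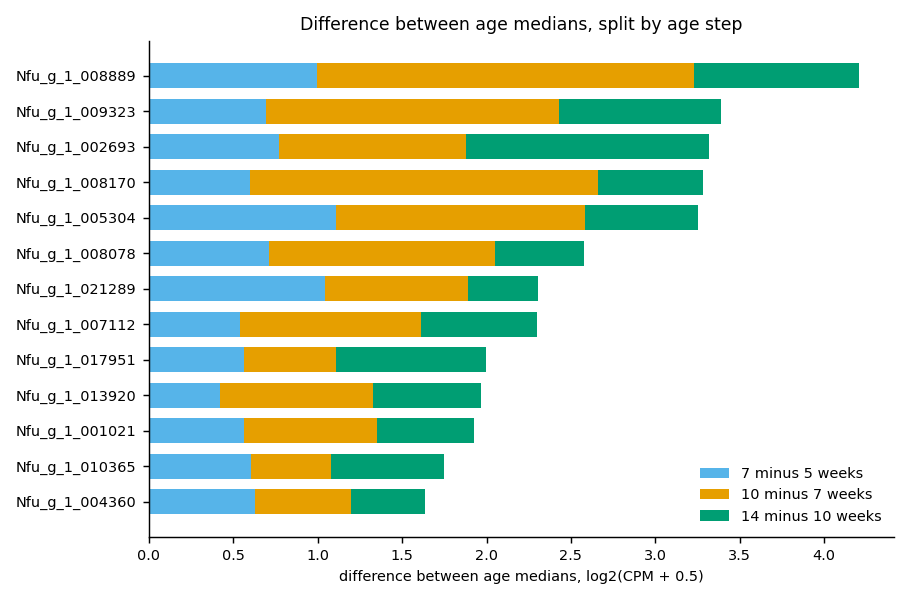
Difference in M (log2 scale) between neighbouring ages for the 13 genes, stacked so that the bar length is the gain from 5 to 14 weeks. The 7 to 10 week segment is the longest in 8 genes, and the total runs from 1.63 in Nfu_g_1_004360 to 4.21 in Nfu_g_1_008889.

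The largest gains from 5 to 7 weeks were those of Nfu_g_1_005304 (1.11) and Nfu_g_1_021289 (1.04). Nfu_g_1_005304 had 19.2, 39.7, 12.0, 11.1 and 6.85 CPM at 5 weeks, and 26.4, 15.3, 32.1, 53.2 and 13 CPM at 7 weeks. At 10 weeks it had 39.1, 74.4, 162, 163 and 66.2 CPM, and at 14 weeks 51.9, 140.2, 114, 133 and 118 CPM. The 14-week fish lay above all 5-week fish, but 2 of the 10-week fish exceeded all 14-week fish.

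From 7 to 10 weeks Nfu_g_1_008889 (2.24) and Nfu_g_1_008170 (2.06) had the largest gains. Nfu_g_1_008170 had 0.444, 0.522, 0, 0.126 and 0.112 CPM at 5 weeks, resting on at most 16 reads per fish, and 0.448, 0.0808, 9.22, 0.589 and 0.157 CPM at 7 weeks. No read in a library allowed a level of up to 0.0700 to 0.133 CPM, depending on the library (3 reads, counting error only). At 10 weeks it had 22.2, 0.123, 1.10, 3.46 and 12.0 CPM, and at 14 weeks 0.924, 3.80, 5.60, 6.74 and 27.7 CPM. The 14-week fish all exceeded the 5-week fish, whereas the 10-week fish spanned nearly the whole range of the gene. From 10 to 14 weeks the largest gains were those of Nfu_g_1_002693 (1.44) and Nfu_g_1_008889 (0.98).

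Nfu_g_1_004360 was the least variable member and also the one with the smallest total gain. It had 5.86, 3.26, 4.40, 2.82 and 5.81 CPM at 5 weeks, and 7.08, 8.49, 4.18, 6.69 and 8.64 CPM at 7 weeks. At 10 weeks it had 12.9, 10.7, 4.92, 6.89 and 13.1 CPM, and at 14 weeks 12.8, 14.7, 10.3, 20.9 and 29.0 CPM. Neighbouring ages overlapped by a few fish each, and 14 and 5 weeks did not overlap. The SD between fish of the same age, as a median over the 4 ages, was 0.50 on the log2 scale, and the next lowest was 0.648 in Nfu_g_1_017951.

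Of the remaining members, Nfu_g_1_017951 ran from 3.15 to 9.40 CPM at 5 weeks, 2.88 to 10.4 CPM at 7 weeks, 9.51 to 16.3 CPM at 10 weeks and 8.21 to 30.1 CPM at 14 weeks. The 14-week fish other than fish 5 had at least 20.0 CPM, above all younger fish. Nfu_g_1_007112 ran from 5.06 to 28.0 CPM at 5 weeks, 6.14 to 22.2 CPM at 7 weeks, 17.8 to 34.7 CPM at 10 weeks and 22.9 to 74.1 CPM at 14 weeks, with 5-week fish 3 highest of its age. Nfu_g_1_010365 ran from 0.673 to 3.82 CPM at 5 weeks, 0.889 to 5.79 CPM at 7 weeks, 2.34 to 8.37 CPM at 10 weeks and 1.01 to 9.37 CPM at 14 weeks, so that the lowest 14-week fish lay among the younger ones.

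Nfu_g_1_013920 had the lowest median CPM of the members at 10 and 14 weeks (1.60 and 2.77 CPM). It had no read in fish 4 of 7 weeks and fish 1 of 10 weeks, yet fish 3 reached 4.64 CPM at 7 weeks and 5.53 CPM at 10 weeks. Its 5-week fish had at most 0.587 CPM, below all 14-week fish, whose lowest had 0.744 CPM. Nfu_g_1_008078 had 47.6 CPM in 5-week fish 5 and at most 10.6 CPM in the other 5-week fish. At 14 weeks, fish 5 had 3.57 CPM and the others 56.7 to 75.3 CPM.

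Separation of the ages fish by fish was uneven over the members. Every 14-week fish exceeded every 5-week fish in 6 of the 13 (Nfu_g_1_008889, Nfu_g_1_009323, Nfu_g_1_008170, Nfu_g_1_005304, Nfu_g_1_013920 and Nfu_g_1_004360), beside 1.73% of all open genes. All 10-week fish exceeded all 7-week fish in 2 members, beside 9.87% of open genes. No member (0 of 13) was free of overlap between 7 and 5 weeks or between 14 and 10 weeks, beside 6.95% and 0.369% of open genes. The members were chosen on differences between these same fish, so the counts describe them and support nothing. Of the 25 possible pairs of 1 fish from each age, the later fish was higher in 17 to 25 pairs at 14 against 5 weeks (median over members 24, over open genes 11). The medians over members were 18 pairs at 7 against 5 weeks, 19 at 10 against 7 weeks and 19 at 14 against 10 weeks, with 13, 12 and 12 over open genes.

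In a fit of the counts of all genes with 1 mean per age (edgeR quasi-likelihood tests, Benjamini-Hochberg adjusted over 16475 genes, called at 0.05), all 13 members were tested. Since the choice used these contrasts, the calls are a description and carry no weight as tests. At 14 against 5 weeks 7 members were called higher, beside 1.31% of all genes called higher. In a separate edgeR fit, with age in weeks as a number, 7 members were called higher for a slope per week, beside 2.57%. With 1 mean per age, 3 members were called at 10 against 7 weeks (Nfu_g_1_008889, Nfu_g_1_009323 and Nfu_g_1_005304), beside 11.9%. At 7 against 5 weeks no member was called (0 of 13), beside 9.66%, and DESeq2 called 1, Nfu_g_1_008170. At an unadjusted p under 0.05 in edgeR, 2 members were higher there, beside 16.6% of all genes. At 14 against 10 weeks no member was called (0 in edgeR, DESeq2 and limma-voom), beside 0.0121%. At an unadjusted p under 0.05 in edgeR, 3 members were higher there, beside 3.50% of all genes. The call at 7 against 5 weeks was made for Nfu_g_1_005304 without 5-week fish 2 and for Nfu_g_1_008889 without 5-week fish 5 (1 member each). The shares of all genes are those of edgeR with all fish. None was worked out for the other fits.

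The fitted change at 14 against 5 weeks was 5.24 for Nfu_g_1_008889 (SE 0.647, adjusted p = 0.000421, edgeR) and 4.23 for Nfu_g_1_009323 (SE 0.675, adjusted p = 0.00342), on the log2 scale. The other called members were Nfu_g_1_008170 (5.32, adjusted p = 0.0427), Nfu_g_1_005304 (2.74, adjusted p = 0.00464), Nfu_g_1_004360 (2.02, adjusted p = 0.00587), Nfu_g_1_017951 (1.96, adjusted p = 0.0101) and Nfu_g_1_007112 (1.8, adjusted p = 0.0321). The 6 members not called had fitted changes of 0.40 to 2.98. With the 10 libraries of these ages alone, 1 member was called, Nfu_g_1_008889 (adjusted p = 0.0460, edgeR). The changes themselves stayed close to those above, at 4.26 for Nfu_g_1_009323 (adjusted p = 0.0581, edgeR), 2.78 for Nfu_g_1_005304 and 2.06 for Nfu_g_1_004360 (both at an adjusted p just over 0.05). The call of Nfu_g_1_008170 was lost when fish 1, 2, 4 or 5 of 5 weeks was left out (adjusted p up to 0.0849 for any fish). It was also lost on leaving out fish 4 or 5 of 10 weeks, and fish 3, 4 or 5 of 14 weeks. With limma-voom it was lost as well, at a change of 5.15 (adjusted p = 0.174). Nfu_g_1_007112 lost its call on leaving out fish 2 or 4 of 5 weeks, and fish 3 or 4 of 14 weeks (adjusted p up to 0.0964). Conversely, Nfu_g_1_008078 was called without 5-week fish 5, and Nfu_g_1_010365 on leaving out fish 5 of either age. The slopes per week with the smallest adjusted p were those of Nfu_g_1_008889 and Nfu_g_1_009323. They were 0.59 (SE 0.0637, adjusted p = 3.07e-05, edgeR) and 0.49 (SE 0.0645, adjusted p = 0.000454, edgeR). Both were called in all 24 alternatives, as were the slopes of Nfu_g_1_005304, Nfu_g_1_007112, Nfu_g_1_017951 and Nfu_g_1_004360. The slope call of Nfu_g_1_010365 (adjusted p = 0.0414) was lost on leaving out any of 12 fish (adjusted p up to 0.113 over all alternatives). These were fish 1 and 2 at 5 weeks, all fish but number 3 at 7 weeks, fish 1 and 4 at 10 weeks and all but number 5 at 14 weeks. With 1 fish left out a slope was also called for Nfu_g_1_002693 (fish 3 of 5 weeks) and Nfu_g_1_008078 (fish 5 of 5 or of 14 weeks). For Nfu_g_1_008170 it was called without fish 3 of 7 weeks, fish 1 of 10 weeks or fish 2 of 14 weeks. DESeq2 called 10 slopes, adding Nfu_g_1_008078, Nfu_g_1_008170 and Nfu_g_1_013920. With limma-voom 7 were called, with Nfu_g_1_008170 in place of Nfu_g_1_010365. The share of all genes called was worked out only for edgeR with all fish and all ages. Counts from the other fits thus have no share beside them and only describe the members.

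Medians and fitted means gave different pictures for some members. At 7 against 5 weeks the fitted change was -1.67 for Nfu_g_1_002693, -0.26 for Nfu_g_1_021289 and -0.03 for Nfu_g_1_007112, although M was higher at 7 weeks by 0.77, 1.04 and 0.54 (none called, adjusted p of 0.292, 0.854 and 0.962 in edgeR). At 10 against 7 weeks it was -0.18 for Nfu_g_1_001021 and -0.26 for Nfu_g_1_021289, although M was higher by 0.79 and 0.85. At 14 against 10 weeks all 13 fitted changes were positive, from 0.16 to 1.57. At 14 against 5 weeks, leaving out single fish moved the fitted change of some members. The part of single fish in the differences at the single steps was not tested. Nfu_g_1_002693 had 30.4 CPM in 5-week fish 3, and its change at 14 against 5 weeks was 0.40 with that fish and 2.66 without it. For Nfu_g_1_021289 it was 0.53 with all fish, 1.22 without fish 2 of 5 weeks, and -0.07 when fish 3 of 14 weeks was left out. The same omissions gave 1.94 and 0.83 for Nfu_g_1_001021, beside 1.27 with all fish. That of Nfu_g_1_008078 was 1.65 with all fish and 2.68 without 5-week fish 5.

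Nfu_g_1_021289, Nfu_g_1_001021 and Nfu_g_1_002693 were high and low in the same fish. The rule used the median of each age, and genes that rank the fish alike tend to share the fish at the median. This likeness is therefore not independent of the choice, and the part of the choice in it was not tested. Nfu_g_1_021289 had 212 and 144 CPM in 5-week fish 2 and 3 and 8.69 to 10.7 CPM in the other 3. At 7 weeks it had 121 and 144 CPM in fish 1 and 4 and 13.9 to 22.5 CPM in the others. At 10 weeks it had 121 CPM in fish 5 and 25.7 to 44.6 CPM in the others, and at 14 weeks 157 and 271 CPM in fish 2 and 3 and 26.0 to 54.8 CPM in the others. The same 7 fish led their age in the other members of this set.

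Nfu_g_1_001021 had 77.2 and 45.4 CPM in 5-week fish 2 and 3, against at most 9.78 CPM in the other 5-week fish. At 7 weeks fish 1 and 4 had 69.3 and 123 CPM, at 10 weeks fish 5 had 84.1 CPM, and at 14 weeks fish 2 and 3 had 132 and 146 CPM. The next highest fish of those ages had 14.7, 32.1 and 38.5 CPM. For Nfu_g_1_002693 the same fish had 6.52 and 30.4 CPM at 5 weeks, 4.6 and 7.59 CPM at 7 weeks, 9.82 CPM at 10 weeks, and 21.3 and 18.8 CPM at 14 weeks, and the next highest had 0.463, 1.14, 4.6 and 9.12 CPM. In each of the 4 ages the same fish therefore stood above the others in all 3 genes, and 5-week fish 2 exceeded 4 of the 5 14-week fish in Nfu_g_1_021289.

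**Figure D3:**
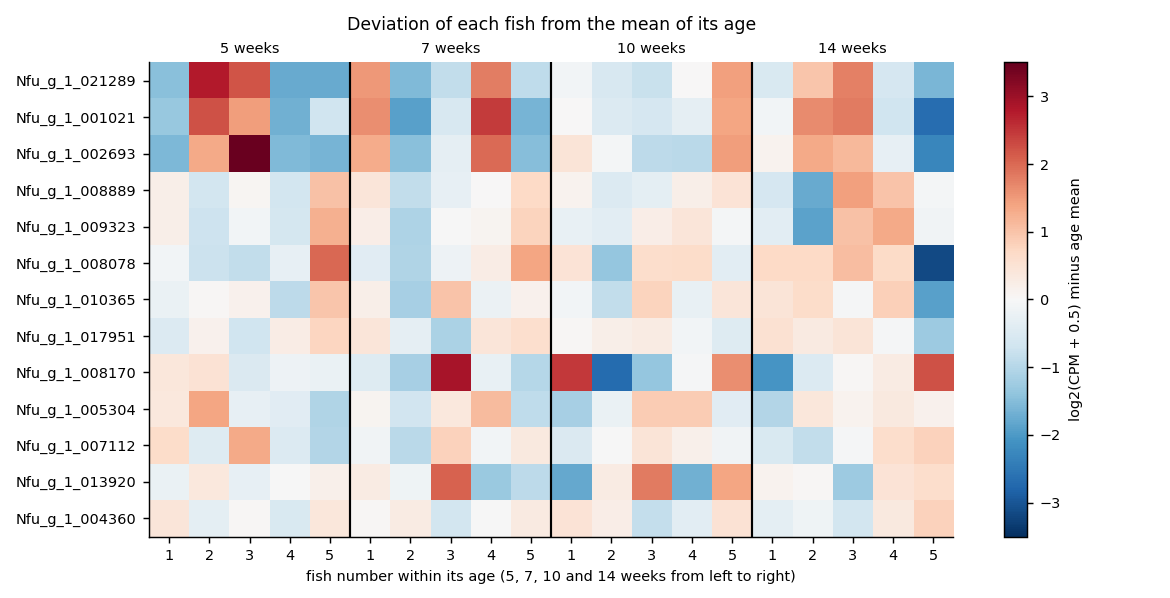
Deviation of each fish from the mean of its age, as log2(CPM + 0.5), for the 13 genes (rows) in the 20 fish (columns, grouped by age), with red above and blue below the mean. In the top 3 rows the reddest columns are the same at every age (fish 2 and 3 at 5 weeks, 1 and 4 at 7 weeks, 5 at 10 weeks, and 2 and 3 at 14 weeks), and the paler columns differ. The next 2 rows are reddest in fish 5 at 5 and 7 weeks and in fish 3 and 4 at 14 weeks.

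As a description over the 20 fish, deviations from the age mean had Pearson r = 0.938 between Nfu_g_1_021289 and Nfu_g_1_001021 (Spearman rho 0.937), 0.911 between Nfu_g_1_002693 and Nfu_g_1_021289 (rho 0.919) and 0.907 between Nfu_g_1_002693 and Nfu_g_1_001021 (rho 0.901). Nfu_g_1_008889 and Nfu_g_1_009323 had r = 0.935 (rho 0.883), and among the 12729 other open genes each was the most alike to the other. Both were highest in fish 5 at 5 and at 7 weeks and in fish 3 and 4 at 14 weeks. Each pair was also taken without the 2 fish farthest from the median deviation of its first-named gene. The 4 values were then 0.941, 0.903, 0.945 and 0.903 in the order given. All points share the library total, and with TMM-scaled totals the 4 values were 0.938, 0.915, 0.910 and 0.936.

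These were the only 4 of 78 pairs of members with r over 0.8, beside 0.215% of pairs of a member with another open gene. Over all pairs of members r ran from -0.612 to 0.938 with a median of 0.043, so the 13 members did not move as a single group from fish to fish. The lowest was that of Nfu_g_1_008170 with Nfu_g_1_017951. Nfu_g_1_008078 had r = 0.724 with Nfu_g_1_010365 and 0.695 with Nfu_g_1_017951. These were 0.472 and 0.452 without the 2 fish farthest from the median deviation of Nfu_g_1_008078. Nfu_g_1_004360 had no open gene (0 of 12729) with r over 0.8.

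14-week fish 5 was at either end of its age in 10 members, as it was in most open genes. It was the lowest of its age in 6 members (Nfu_g_1_001021, Nfu_g_1_002693, Nfu_g_1_008078, Nfu_g_1_010365, Nfu_g_1_017951 and Nfu_g_1_021289) and the highest in 4 (Nfu_g_1_004360, Nfu_g_1_007112, Nfu_g_1_008170 and Nfu_g_1_013920). Over all open genes it was the lowest of its age in 31.9% and the highest in 38.6%. 7-week fish 2 was the lowest of its age in 8 members and the highest in none (0), beside 29.1% and 20.4% of open genes. Library totals, 22529235 to 42886761 counts over the 20 fish, were 34710218 and 37122038 in these fish.

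Members varied more between fish of the same age than open genes did as a whole. The SD of log2(CPM + 0.5), as a median over the 4 ages, had a median of 0.846 over members (0.50 to 1.8) and of 0.371 over open genes. The highest were those of Nfu_g_1_001021 (1.8) and Nfu_g_1_008170 (1.60). The median SD over members was 0.790, 0.807, 0.80 and 1.27 at 5, 7, 10 and 14 weeks, and over open genes 0.473, 0.280, 0.357 and 0.378. The largest SD fell at 14 weeks in 5 members and at 5 weeks in 4, and over open genes at 14 weeks in 26.5% and at 5 weeks in 45.7%. The members were chosen by differences between medians, and the part of that choice in these values was not tested.

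Members differed widely in length and level. The gene lengths implied by the deposited RPKM (levels per kilobase of gene) ran from 888 bp in Nfu_g_1_008170 to 13484 bp in Nfu_g_1_001021, with a median of 3623 bp over members and 2950.5 bp over open genes. The share of open genes no longer than the member was 12.4% and 99.2% for these members. At 14 weeks, the share of open genes with a median CPM no higher ran from 14.8% for Nfu_g_1_013920 to 94.8% for Nfu_g_1_005304. Scaled by length and by each library's own total, the median RPKM over members was 0.725, 1.09, 3.90 and 6.30 at 5, 7, 10 and 14 weeks, and over open genes 3.92, 4.26, 4.07 and 3.88. The median over members thus lay below that of the open genes at 5 weeks and above it at 14 weeks. The rule asked for a gain at every step, so lower levels at 5 than at 14 weeks were set by the choice. Nfu_g_1_009323, Nfu_g_1_002693, Nfu_g_1_013920, Nfu_g_1_001021 and Nfu_g_1_010365 were still below the open-gene median at 14 weeks, at 1.41 to 2.95 RPKM. The highest levels per length at 14 weeks were those of Nfu_g_1_005304, with a median of 19.7 RPKM, and Nfu_g_1_017951, with 10.5 RPKM. At 5 weeks, 5 of the members had a median under 1 CPM (Nfu_g_1_008889, Nfu_g_1_009323, Nfu_g_1_002693, Nfu_g_1_008170 and Nfu_g_1_013920), and their folds depend on the 0.5 CPM added.

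The set itself changed with single fish. With 1 fish left out at a time, the rule chose 8 to 22 genes, of which 8 to 13 were among the 13 members. It chose 8 genes when fish 4 of 5 weeks was left out. The count was 20 and 22 on leaving out fish 3 and fish 4 of 10 weeks, and 20 and 21 on leaving out fish 1 and fish 5 of 14 weeks. Nfu_g_1_008889, Nfu_g_1_009323 and Nfu_g_1_008078 were chosen in all 20 such selections, and Nfu_g_1_010365 in 18. Nfu_g_1_005304, Nfu_g_1_007112 and Nfu_g_1_017951 were chosen in 17 each, and the others in 10 to 13. Nfu_g_1_021289 and Nfu_g_1_001021 were chosen in 10 each, the lowest number. With the mean of the fish in place of the median the rule chose 5 genes, 4 of them members (Nfu_g_1_008889, Nfu_g_1_009323, Nfu_g_1_008170 and Nfu_g_1_013920).

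**Figure D4:**
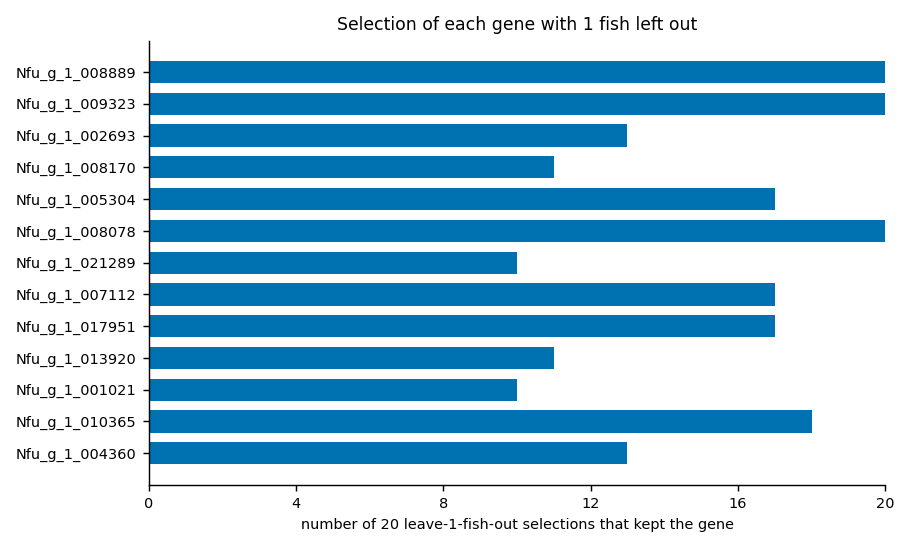
Number of the 20 selections, each with 1 fish left out, in which the rule again chose each of the 13 genes. The bars run from 10 in Nfu_g_1_021289 and Nfu_g_1_001021 to 20 in Nfu_g_1_008889, Nfu_g_1_009323 and Nfu_g_1_008078.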

How the data were processed

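The authors deposited whole-number read counts per gene for 20 libraries, and RPKM for the same genes. The kit was Illumina TruSeq RNA v2, per the labels' protocols. Tools named in the submitters' processing notes are STAR 2.4.1d, featureCounts 1.4.6-p4 and CASAVA 1.8.2. Build, annotation and strand setting were not given in the sources used here. It is therefore not known how reads of near-identical or overlapping genes were assigned. In the deposited RPKM the divisor was not the total of the library in question. Successive cells took 25 divisors in turn, 20 of which are the column totals. Only cells that fall on these 20 could be checked. The order rebuilt 100% of 237975 such values within 0.1% or 0.0015 RPKM, against 5.53% with own totals. For both shares the length of a gene was worked out from a single cell under this order, so the shares are not independent of it. For members, the deposited RPKM were 0.525 to 1.90 times those with own totals. Gene lengths were taken from this table, and the deposited RPKM served only in an alternative selection.

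Fish are numbered within an age in the order of the deposit, only to name them. All 40 pairs of fish of 1 age differed by more than sampling noise (lowest chi-square per degree of freedom 64.8), so none was taken for a library deposited more than once. This compares libraries with counting noise alone and does not show that they came from separate animals. The labels do not say more of how the animals were kept apart, so the p-values rest on the spread between samples, which may be partly technical. Counts were fitted in R 4.3.3 with edgeR 4.0.16 (filterByExpr by age, TMM, quasi-likelihood F-tests, 1 mean per age or a slope per week, Benjamini-Hochberg), tested beforehand on simulated counts. DESeq2 1.42.0 and limma 3.58.1 (voom), RLE scaling, no filter, the libraries of 2 ages and leaving out each fish were alternatives. Standard errors are the log2 change divided by the square root of F. CPM of members are without TMM scaling. Python 3.11.15 with pandas 2.3.3 was used for the selection.

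The members and lists were chosen with earlier results of these data known. Identifiers were named by rule: the largest total gain, the largest gain at each step, the highest level per length, the smallest overlap between ages, the highest and lowest spread, those nearest to the limit and the smallest slope p (2 each). The 3 members this left out, Nfu_g_1_007112, Nfu_g_1_008078 and Nfu_g_1_010365, were named so that all 13 are accounted for. Marker and pathway lists could not be applied, since no identifier has a name. The selection from RPKM rebuilt with own totals and the group of genes alike in 3 members were added after seeing the data.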

Additional observations from a re-analysis of the deposited data

Results flagged for a closer look

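Within each age, the highest and the lowest fish of each member were compared with the rest by the gap to the nearest fish as a share of the range of log2(CPM + 0.5), with a limit of 0.71 for 5 fish. Of 52 groups of 5 fish, 4 had a fish beyond the limit. Chance puts about 1 in 20 groups there.

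Nfu_g_1_008078 had 3.57 CPM in 14-week fish 5, far below the other 14-week fish (56.7 to 75.3 CPM), and the gap was 0.904 of the range. The same gene had 47.6 CPM in 5-week fish 5, far above the other 5-week fish (6.05 to 10.6 CPM). Nfu_g_1_005304 had 51.9 CPM in 14-week fish 1, against 114 to 140.2 CPM in the other 14-week fish. Nfu_g_1_008170 had 9.22 CPM in 7-week fish 3, against 0.0808 to 0.589 CPM in the other 7-week fish.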

How the results depend on the processing

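The number of genes chosen was 13 and lay between 9 and 18 with TMM or RLE scaling, a pseudocount of 0.1 or 1, a step of 0.5, a minimum of 1 or 5 CPM, no abundant genes dropped, the deposited RPKM or RPKM with own totals. It was 5 with the mean of the fish, 30 with a step of 0.3, and 8 to 22 with 1 fish left out. TMM scaling gave 17 genes, 11 of them members, and the deposited RPKM gave 12, with 6 members. The members lost with TMM scaling were Nfu_g_1_013920 and Nfu_g_1_004360. Of the 12 alternatives with all fish, Nfu_g_1_013920 was kept in 6, the lowest number. Nfu_g_1_004360 was kept in 8, as were Nfu_g_1_021289, Nfu_g_1_001021 and Nfu_g_1_010365. Leaving out any of the 10-week fish also lost Nfu_g_1_004360. In both RPKM selections the minimum of 2 and the 0.5 added were in RPKM in place of CPM. This left 10454 genes open with the deposited RPKM and 10390 with own totals, against 12730. The part of these changed limits in the selections was not tested. Members called at 14 against 5 weeks fell to 1 of 7 with the libraries of these ages alone, and were 5 to 8 with 1 fish left out. At 7 against 5 weeks the count was 1 with DESeq2 and 0 to 1 with 1 fish left out, against 0. Slope calls were 10 with DESeq2, 7 with limma-voom and 6 to 8 with 1 fish left out. Calls at 10 against 7 weeks were 3 to 4, and those at 14 against 10 weeks 0, with 1 fish left out. The share of all genes called was not worked out for these alternatives, so the counts cannot be set beside it. Of 325 alternative values of the members' change at 14 against 5 weeks, 300 kept direction and side of the threshold, 20 lost the call, 4 gained it and 1 changed sign (Nfu_g_1_021289, -0.067 without 14-week fish 3 and up to 1.22 without 5-week fish 2); the causes were not tested. No paired analysis was possible because no label links fish of different ages. Nfu_g_1_008170 had no read in 5-week fish 3 (total 32050062 counts). Nfu_g_1_013920 had none in 7-week fish 4 (28865593) and 10-week fish 1 (28041741). These totals were not among the lowest, and the part of depth was not tested.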

Other observations

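The 3 members that were high in the same fish belonged to a wider set. Beside them, 36 open genes, none of them a member (0), had r over 0.8 with all 3 in the deviations from the age mean over the 20 fish, and 53 had it with at least 1. This set was formed after seeing the values. It was chosen on the same deviations that are given next, so the fish in which it is high follow from the choice. The median deviation of the 36 genes was 1.34 and 1.53 (log2 scale) in 5-week fish 2 and 3, 1.06 and 1.26 in 7-week fish 1 and 4, 1.15 in 10-week fish 5, and 1.09 and 1.24 in 14-week fish 2 and 3. It was below 0 in the other 13 fish, and lowest in 14-week fish 5 at -1.64.

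M was higher at 14 than at 5 weeks in 35 of the 36, by a median of 1.22. The 36 genes were taken for their likeness, in the same fish, to 3 genes chosen for rising medians, so this count is not independent of that choice and supports nothing. At 14 against 5 weeks, edgeR called none of them higher (0 at an adjusted p under 0.05), beside 1.31% of all genes. At an unadjusted p under 0.05 in edgeR, 2 of them were higher, beside 8.05% of all genes. DESeq2 called 1 and limma-voom called 0, and the share of all genes called was not worked out for DESeq2 or limma-voom.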
